A study of Mus musculus with 6 samples.

Results

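Cck, Slco1a5, Blnk and Podxl are 4 genes best known from gut, brain, B cells and kidney. They are described here in mouse muscle stem cells labelled as knockout for Setdb1, in which Setdb1 RNA was lower but still present. They were chosen by their counts, out of 55487 genes in the deposited table (11224 with enough counts to test), because each was higher in every knockout library than in the controls. The difference that chose them is therefore described below and not tested. Muscle stem cells of 10-week-old mice were profiled by RNA sequencing 60 h after cardiotoxin (CTX), a snake venom toxin that destroys muscle fibres and sets off their repair. The 3 control libraries came from mice labelled WT that received oil, and the 3 knockout (KO) libraries from mice labelled KO for Setdb1 that received tamoxifen. Genotype and tamoxifen cannot be told apart in this design. The recombinase, the cells that express it and the deleted part of Setdb1 are not named in the labels used here, nor is it stated whether a library pools animals. Libraries of one group are labelled as biological replicates.

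Setdb1 encodes a histone methyltransferase whose mark, methylated H3K9, goes with silent chromatin, and such marks help to keep genes of other lineages off in a differentiated cell. Cck encodes a precursor peptide that endocrine cells of the small intestine and many neurons cut into cholecystokinin, which acts on the gallbladder, the pancreas and the brain through G protein-coupled receptors. Slco1a5 encodes a membrane transporter of the organic anion transporting polypeptide family, which carries bile acids, steroid conjugates and thyroid hormones into cells and is known from intestine and choroid plexus. Blnk encodes the B cell linker, an adaptor that the kinase Syk phosphorylates below the B cell receptor and that brings Btk and phospholipase C gamma together. Podxl encodes podocalyxin, a heavily sialylated surface protein of the CD34 family that coats kidney podocytes, blood vessel linings and some stem cells.

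All 4 genes lie on the minus strand of GRCm38, on 3 chromosomes, and none shares an exon with another annotated gene. Cck (ENSMUSG00000032532) spans 121489824 to 121495694 on chromosome 9, with 6 annotated transcripts. Slco1a5 (ENSMUSG00000063975) spans 142234227 to 142322981 on chromosome 6, and Iapp, the gene of islet amyloid polypeptide, lies inside it on the other strand. Blnk (ENSMUSG00000061132) spans 40928927 to 40994535 on chromosome 19. Podxl (ENSMUSG00000025608) spans 31519488 to 31563981 on chromosome 6, far from Slco1a5. Cck and Podxl had no 50-base word in common with transcripts of other genes. Blnk shared 0.434% of its words, and Slco1a5 shared 3.56%, mainly with Slco1a4, Slco1a1 and Slco1a6, so a small part of its reads could belong to these relatives.

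The bases before the starts of Cck and Slco1a5 are shown because these members had the fewest control counts. They come from RefSeq (GRCm38.p6), which held windows for 3 of the 4 genes, with no entry for Podxl. The Blnk window fell inside the first exon that GENCODE annotates and is not printed. Each run below gives 250 bases of the minus strand, 5′ to 3′, ending at the base before the annotated start, with the motif matches in capitals. Slco1a5 has 2 starts in this table, and the second lies inside the gene.
Cck, chr9:121495695-121495944: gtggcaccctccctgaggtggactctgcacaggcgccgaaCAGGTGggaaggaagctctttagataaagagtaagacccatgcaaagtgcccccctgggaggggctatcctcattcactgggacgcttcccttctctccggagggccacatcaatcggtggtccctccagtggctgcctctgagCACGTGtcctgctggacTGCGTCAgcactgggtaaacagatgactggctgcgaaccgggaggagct
Slco1a5, first start, chr6:142322982-142323231: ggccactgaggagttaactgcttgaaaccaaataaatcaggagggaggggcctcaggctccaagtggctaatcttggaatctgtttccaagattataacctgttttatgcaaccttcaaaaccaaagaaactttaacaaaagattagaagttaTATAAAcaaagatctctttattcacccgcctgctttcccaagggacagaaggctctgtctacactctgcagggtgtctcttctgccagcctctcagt
Slco1a5, second start, chr6:142278875-142279124: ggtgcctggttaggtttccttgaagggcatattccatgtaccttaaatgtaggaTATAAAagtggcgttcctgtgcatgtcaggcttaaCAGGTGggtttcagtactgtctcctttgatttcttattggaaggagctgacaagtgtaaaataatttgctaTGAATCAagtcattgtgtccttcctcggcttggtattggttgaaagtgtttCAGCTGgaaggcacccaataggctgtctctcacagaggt

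The words searched on both strands were the E-box word CACGTG, another E-box word CAGCTG, a further E-box word CACCTG, the cyclic AMP response element TGACGTCA with its variant form TGCGTCA, the AP-1 word TGANTCA, the TATA word TATAAA with its relative TATTTAA, and the GC box GGGCGG. These words do not overlap each other in the printed windows. The Cck window held CACGTG 66 bases and TGCGTCA 49 bases before the start, counted to the first base of the match, and CACCTG on the other strand, read as CAGGTG. Of all 32851 windows of this length, 6.02% held CACGTG and 1.75% held TGCGTCA. Slco1a5 held TATAAA before both starts, a word found in 12.4% of all windows. Its second window also held CAGGTG, the other strand of CACCTG (in 17.2% of windows), TGAATCA (AP-1 word, 6.75%) and CAGCTG (13%). CACCTG, on either strand, was the only word of the list found for all 3 genes (the single match in the Blnk window, and for Slco1a5 before the second start only). The number of CG dinucleotides was 9 for Cck, 6 for Blnk, and 1 and 2 for the Slco1a5 starts, against a median of 6 over all windows. A match describes these letters and is no evidence of binding.

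Total counts ran from 4052569 to 5690844 per library, of which 2002124 to 3050460 fell on protein-coding genes. Setdb1 itself was at 34.9, 40.5 and 32.1 CPM (counts scaled to library size, with TMM factors) in controls and at 16.5, 12.7 and 14.7 CPM in KO cells. KO library 1 stood apart in low-level detection. Of 11609 protein-coding genes below the low-count filter, 68.1% had at least 1 count in KO library 1, against 28.9% to 34.5% in the 5 other libraries, although KO library 1 was the shallowest. Neutrophil transcripts such as S100a9 were present in control library 3 and KO libraries 2 and 3 (3406, 1051 and 385 counts) and nearly absent from the others (0, 0 and 2). Results are therefore given with and without these libraries where they bear on the 4 genes.

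Cck had 0 counts in each control library and 22, 18 and 14 counts in the KO libraries. The KO levels were 5.85, 3.70 and 2.74 CPM, the highest being KO library 1, and the groups did not overlap. Summed over libraries, the KO level was 19.9 times a floor of 3 counts taken over the whole control group. With the lower exact 95% counting limit of the KO counts, it was at least 14.95-fold higher than that floor. The spread among KO libraries (4.10 ± 1.60 CPM, SD, n = 3) was a coefficient of variation of 39%, where counting alone would give 23.6%. With exact 95% counting intervals of 3.67 to 8.86, 2.19 to 5.84 and 1.496 to 4.59 CPM, the intervals of all 3 KO libraries overlap.

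Because KO library 1 also held low counts of many genes below the filter, Cck was set beside the 6025 protein-coding genes with 0 counts in all controls. KO library 1 held counts of 3088 of these genes, against 502 for KO library 2 and 672 for KO library 3. Cck, at 22 counts, had the highest count of this class in KO library 1, where the next gene had 21. In KO libraries 2 and 3, 2 and 4 other genes of the class reached the count of Cck or more. At least 1 count in every KO library was found for 114 genes of the class. Only 4 of them, Cck, Diras2, Gm4969 and Klhdc7a, had at least 5 counts in each. The last 3 were named after their values were seen. Cck was chosen for its KO counts, so its high place in this class follows from that choice and is no test. Without KO library 1, Cck was left with 18 and 14 counts, and its fitted log2 fold change was 7.03, against 7.29 (SE 0.97) with all libraries. These fitted values depend on the small count that the model adds to the zeros. The source of the low counts in KO library 1 was not tested, nor was its part in the Cck value of that library.

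Slco1a5 was nearly silent in the controls, with 5, 9 and 3 counts, and reached 57, 78 and 104 counts in the KO libraries. In CPM this was 1.00, 1.88 and 0.55 against 15.2, 16.0 and 20.3. The lowest KO library was 8.07 times the highest control library, so the groups did not overlap. The mean went from 1.15 ± 0.67 to 17.2 ± 2.77 CPM, a ratio of 15 and a log2 fold change of 3.91 (SE 0.33). On the summed counts the ratio was 15.5, with an exact 95% interval of 9.51 to 27.1 that covers counting error only. The largest value was in KO library 3 and the smallest in KO library 1, whereas Cck was highest in KO library 1. Control library 2 set the highest control level, and without it the log2 fold change was 4.43.

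Blnk was detected in every control library, at 5.61, 5.22 and 5.91 CPM (28, 25 and 32 counts). The KO libraries gave 36.4, 31.8 and 31.7 CPM (137, 155 and 162 counts). All 3 KO values lay within a narrow band, at least 5.36 times the highest control. Its mean went from 5.58 ± 0.35 to 33.3 ± 2.71 CPM, a ratio of 5.97 and a log2 fold change of 2.57 (SE 0.17). The coefficient of variation among KO libraries was 8.14%, and counting alone would give 8.13%.

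Podxl had the highest level of the 4 genes in both groups. Control libraries held 26.0, 27.1 and 21.8 CPM (130, 130 and 118 counts), and KO libraries held 87.2, 78.4 and 87.0 CPM (328, 382 and 445 counts). The lowest KO library was 2.89 times the highest control, and the groups did not overlap. Podxl went from 24.99 ± 2.82 to 84.2 ± 5.003 CPM, a ratio of 3.37 and a log2 fold change of 1.75 (SE 0.13). Its KO libraries differed by a coefficient of variation of 5.94%, where counting alone would give 5.10%. It was thus already transcribed in control cells, unlike Cck. In these bulk samples, more RNA per cell and more cells with the transcript cannot be told apart, for any of the 4 genes.

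**Figure D1:**
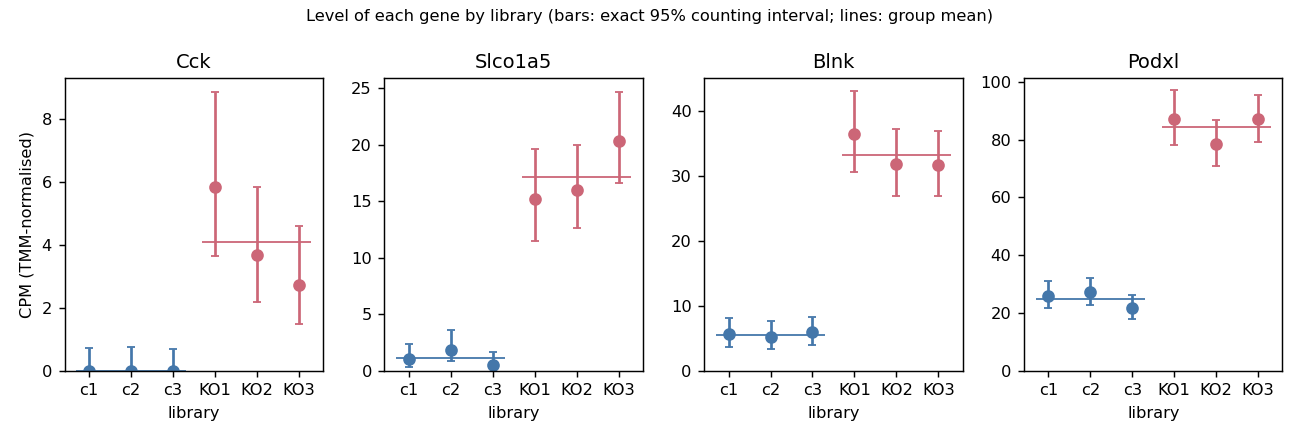
Level of each gene in each library (y axis, TMM-normalised CPM, linear from 0; c1 to c3 are control libraries, KO1 to KO3 knockout libraries). Points are libraries, bars exact 95% counting intervals and lines group means; Podxl averages 24.99 CPM in controls and 84.2 in KO cells, while Cck is at 0 in all 3 controls.

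By log2 fold change the 4 genes ranked 2nd (Cck), 11th (Slco1a5), 37th (Blnk) and 70th (Podxl) among the 249 genes called higher in KO cells. The place of Cck rests on a fit over 0 control counts (7.29 in edgeR, 5.29 in limma-voom), so its order against Slco1a5 is not settled. Over all 11224 genes tested, 2.83% were called in either direction by edgeR's quasi-likelihood test with Benjamini-Hochberg adjustment (threshold 0.05), 2.22% higher and 0.615% lower. With no adjustment, a p under 0.05 was reached by 10.1% in the higher and 7.64% in the lower direction. In 12.8% of all tested genes every KO library lay above every control library. These shares are given as background only, because the same contrast chose the 4 genes. Cck and Slco1a5 passed the low-count filter through their KO counts.

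Per kilobase of annotated exon, the order of the mean levels was the same in both groups. KO cells held 15.4 CPM per kilobase of Podxl, 5.56 of Blnk, 4.61 of Slco1a5 and 3.14 of Cck. Control cells held 4.55 of Podxl, 0.93 of Blnk, 0.31 of Slco1a5 and 0 of Cck. Set among 10365 tested protein-coding genes, Podxl moved from above 54.9% of them in controls to above 85% in KO cells. Blnk moved from above 14.2% to above 61%, Slco1a5 from above 1.83% to above 55.1%, and Cck from the bottom to above 42.7%. Cck and Slco1a5 are in this set only through their KO counts, so their low places in controls follow from the filter and the choice. These levels per length use all annotated exons of a gene, and which transcript was made is not shown by gene counts.

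Relatives of each gene were then examined to see whether a family or pathway moved with its member. Of 37 other peptide hormone and neuropeptide genes, only Gal and Penk had enough counts to test, and neither was called. Galanin (Gal), a neuropeptide, was well expressed at 104.7, 105.8 and 111.6 CPM in controls and 107.7, 97.3 and 73.1 CPM in KO cells (edgeR adjusted p = 0.442). Penk, the enkephalin precursor gene, was near 3 CPM (2.96 ± 1.80 and 3.61 ± 1.02). Gast, the gene of gastrin and the closest relative of Cck, had 0 counts in all 6 libraries. In KO library 1, 21 of the 37 genes had at least 1 count, against 6 to 10 in each other library.

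Genes that turn a prohormone into an active peptide were measured alongside. Of 18 genes of prohormone processing and secretory granules, 8 were tested and none was called (2 higher at an unadjusted p under 0.05, against 10.1% of all tested genes; median log2 fold change 0.18, against 0.0074). Cpd, a carboxypeptidase gene, was at 100.8 ± 4.35 and 100.1 ± 9.06 CPM. Pam, which encodes the amidating enzyme that finishes the end of cholecystokinin, was at 69.1 ± 9.61 and 82.9 ± 4.79 CPM (adjusted p = 0.286). Tpst1 and Tpst2, whose enzymes sulfate tyrosine, had log2 fold changes of -0.08 and 0.20. The convertase genes of endocrine cells, Pcsk1 and Pcsk2, had at most 3 and 6 counts in any library. The cholecystokinin receptor genes were not tested either: Cckar had 1, 0 and 0 counts in controls and 8, 1 and 0 in KO cells, and Cckbr had 0, 1 and 0 against 1, 0 and 0. The 8 counts of Cckar were in KO library 1, which held low counts of many genes below the filter.

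Among 14 other Slco transporter genes, 3 were tested and none was called, against 2.83% called of all tested genes. None had an unadjusted p under 0.05, against 10.1% higher and 7.64% lower of all tested genes. Slco3a1 and Slco2a1, a prostaglandin transporter gene, had log2 fold changes of 0.36 (SE 0.20, adjusted p = 0.38) and 0.26 (SE 0.23, adjusted p = 0.606). The neighbours of Slco1a5 in its own gene cluster stayed below the filter. Slco1a6, the nearest, had 1, 1 and 2 counts in controls and 9, 3 and 7 in KO cells, and the groups did not overlap (0.20, 0.21 and 0.37 against 2.39, 0.62 and 1.37 CPM). Fitted without the filter, its log2 fold change was 2.29 (SE 1.02, adjusted p = 0.439), so it was not called. Slco1a6 shared 6.22% of its 50-base words with other genes, Slco1a5 among them. Slco1a4 had 0, 0 and 0 counts against 3, 1 and 0, and Slco1a1 had 1, 0 and 0 against 3, 0 and 0. Of 17 other transporters of bile acids, anions and drugs, 6 were tested and none was called. At an unadjusted p under 0.05, 1 was lower, against 7.64% of all tested genes. Abcc1 and Abcb1b, which encode drug export pumps, had log2 fold changes of -0.41 (SE 0.11, adjusted p = 0.074) and -0.04.

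Of 23 genes of B cell receptor signalling and adaptors, 16 were tested and none was called, against 2.83% called of all tested genes. At an unadjusted p under 0.05, 2 were higher and 1 lower, against 10.1% and 7.64% of all tested genes. The median log2 fold change was 0.05. Syk, whose kinase acts on the Blnk protein, was measured at 1.60, 0.21 and 3.88 CPM in controls and at 3.72, 2.67 and 1.95 CPM in KO cells. Plcg2, an enzyme gene that Blnk serves in B cells, was at 1.60, 1.25 and 7.02 against 3.99, 5.54 and 4.10 CPM. Both ranges overlapped between groups. Grb2 and Sos1, widely expressed genes of growth factor signalling, had the highest levels of the list, with log2 fold changes of 0.10 and -0.28. Btk had 0, 0 and 5 counts in controls and 1, 4 and 0 in KO cells. Lcp2, the relative of Blnk used by T cells and myeloid cells, had 3, 1 and 18 counts against 4, 9 and 3, and Clnk, the other relative, had none in any library.

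Podxl partners gave 1 call among 8 tested of 11 genes, against 2.83% called of all tested genes. At an unadjusted p under 0.05, 2 were higher and 1 lower, against 10.1% and 7.64% of all tested genes, and the median log2 fold change was 0.16. Ezr, which encodes ezrin, the linker that ties podocalyxin to the actin skeleton, was at 97.9, 103.8 and 108.1 CPM in controls and at 141.5, 146.4 and 164.0 CPM in KO cells. All 3 KO libraries lay above the controls, and Ezr rose by 0.55 on the log2 scale (SE 0.11, edgeR adjusted p = 0.0183). Ezr was no longer called when a single library among controls 1 and 2 and KO 2 and 3 was left out (highest adjusted p 0.124), with library totals as the only scaling and with no low-count filter (0.1 and 0.0515), and without the neutrophil-holding libraries (0.0544). Msn and Rdx, the genes of the related linkers moesin and radixin, had log2 fold changes of 0.34 and -0.09 (adjusted p = 0.157 and 0.74). Cd34, the family member also carried by satellite cells, was at 46.9 ± 3.23 and 39.0 ± 2.68 CPM in the 2 groups, a log2 fold change of -0.27 (adjusted p = 0.268). Podxl2, the third member of the family, had 4 to 6 counts in controls and 6 to 7 in KO cells.

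**Figure D2:**
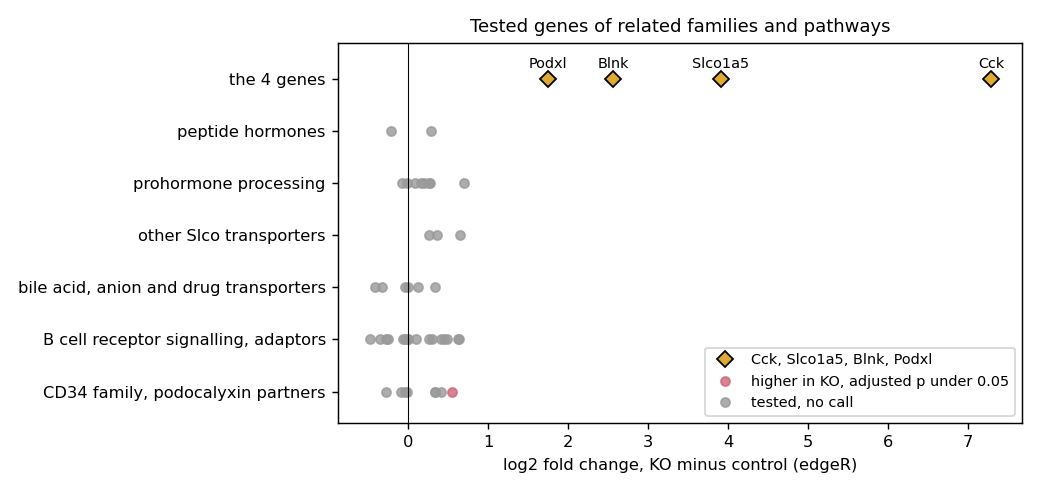
Log2 fold change (x axis, KO minus control) of tested genes in the lists of relatives and pathways, with the 4 genes in the top row as diamonds. Gray circles were tested and not called, and the single red circle is Ezr at 0.55; the tested relatives lie between -0.48 (Itpr1) and 0.70 (Pcsk5), and Podxl, the lowest diamond, is at 1.75.

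Genes near the 4 loci were examined by position, which the choice of members did not use. Within 500 kb between starts, the table held 94 other genes, of which 23 were tested and 0 were called by edgeR, DESeq2 or limma-voom, against 2.83% of all tested genes in edgeR. At an unadjusted p under 0.05, 0 were higher and 2 lower, where 7.64% of all tested genes were lower. Their median log2 fold change was -0.10. Around Cck, the nearest tested genes by start were Trak1 at -198.2 kb (log2 fold change 0.08, SE 0.14) and Sec22c at 209.8 kb (-0.27, SE 0.29), where a minus sign means lower coordinates. Pyroxd1 starts 22.7 kb from Slco1a5 and was at 9.41 ± 2.54 CPM in controls and 9.13 ± 0.41 CPM in KO cells (log2 fold change -0.04, SE 0.23). No tested gene lay on the other side of Slco1a5, where its relatives are, and Iapp, inside it, had 1 count in all. For Blnk the nearest were Zfp518a at -99.83 kb (-0.07, SE 0.16) and Tm9sf3 at 269.5 kb (0.10, SE 0.11), and for Podxl Mkln1 at -165.2 kb (-0.09, SE 0.12). The SEs of these 23 log2 fold changes ran from 0.11 (Tm9sf3) to 0.86 (Abcc9), so modest changes of some neighbours would not be detectable.

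**Figure D3:**
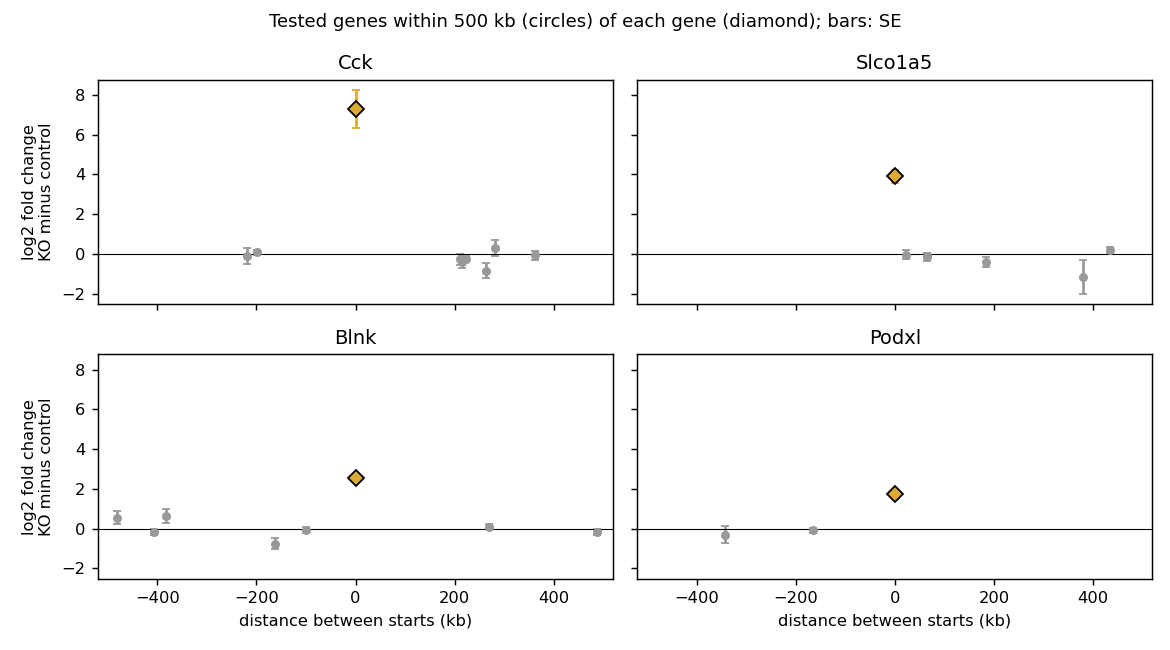
Log2 fold change (y axis, KO minus control, bars SE) of tested genes by the distance of their start from that of the named gene (x axis, kb). Diamonds are Cck, Slco1a5, Blnk and Podxl and circles their 23 tested neighbours, none of which was called.

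Markers of the tissues in which the 4 genes are usually studied were measured in every library. Of 22 B cell markers, only Ebf1, which fibroblasts also express, was tested (adjusted p = 0.447). Cd79a, which encodes a chain of the B cell receptor complex, had 1 count, in control library 3, while Blnk reached 31.7 CPM or more in KO cells. The summed level of the list was 4.80 to 13.5 CPM in controls and 12.1 to 23.1 CPM in KO cells, with 3 markers at 0 in all libraries. Macrophages also express Blnk. The sum of 12 macrophage markers was highest in control library 3 (102.3 CPM) and ranged from 9.81 to 102.3 CPM in controls and from 11.4 to 44.1 CPM in KO cells. Lyz2 (76.1 CPM) and Itgam (18.3 CPM), which neutrophils also express, made up most of the sum in that library. Without both, a choice made after their values were seen, the sums were 8.81, 5.64 and 7.94 CPM in controls and 8.78, 6.78 and 8.79 CPM in KO cells, so the groups overlapped. The part of B cells or macrophages in the level of Blnk was not tested. No macrophage marker of 4 tested and no neutrophil marker of 8 tested was called, in either case with 0 at an unadjusted p under 0.05. Of all tested genes, 2.83% were called, and 10.1% were higher and 7.64% lower at that unadjusted p. The sum of 12 neutrophil markers ran from 2.92 to 2301 CPM in controls and from 3.99 to 937.2 CPM in KO cells. Csf1r had 5, 8 and 4 counts in controls and 3, 11 and 8 in KO cells.

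Podxl is also made by endothelial cells. The summed level of 15 endothelial markers was 6.89 to 17.2 CPM in controls and 14.3 to 21.8 CPM in KO cells, so the groups overlapped. Neither tested marker, Eng or Tek, was called (1 higher at an unadjusted p under 0.05, against 10.1% of all tested genes). Eng was at 3.26 ± 1.22 CPM in controls and 5.99 ± 2.08 CPM in KO cells, a log2 fold change of 0.88 (SE 0.37, edgeR adjusted p = 0.227). Tek was at 2.98 ± 1.51 and 3.15 ± 0.29 CPM, a log2 fold change of 0.06. Among untested markers, Pecam1 had 7, 2 and 6 counts against 7, 0 and 0, and Cdh5 had 5, 2 and 6 against 5, 6 and 1. The part of endothelial cells in the level of Podxl was not tested. Kidney markers gave 1 call among 8 tested of 21 genes, against 2.83% called of all tested genes. At an unadjusted p under 0.05, 2 were higher and 0 lower, against 10.1% and 7.64% of all tested genes. The call was Aqp1, the gene of a water channel found in many cell types. It was at 41.3 ± 6.11 CPM in controls and 59.7 ± 2.47 CPM in KO cells. On the log2 scale it was 0.53 higher (SE 0.13, edgeR adjusted p = 0.0398). This call was kept in 5 of 16 alternatives, ended when any single library other than control library 2 was left out, and reached an adjusted p of 0.305 with DESeq2. The kidney sum was 204.7 to 246.3 CPM in controls and 241.1 to 285.1 CPM in KO cells, with overlap. Wt1, a transcription factor gene of podocytes, had at most 5 counts in any library, and Nphs1 was at 4.06 ± 0.62 and 3.91 ± 0.54 CPM.

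Intestine and choroid plexus markers were scarce. Of 16 intestinal genes only Anpep, which fibroblasts also express, was tested (edgeR adjusted p = 0.485). The sum was 5.64 to 6.28 CPM in controls and 7.19 to 10.1 CPM in KO cells, without overlap. Anpep itself was at 4.81, 2.51 and 2.96 CPM in controls and 3.99, 4.72 and 5.67 CPM in KO cells. No choroid plexus gene of 6 was tested. Their sum was 4.79 CPM in KO library 1 and 0.185 to 0.626 CPM in the other libraries. Among 16 neuron markers, with sums of 41.4 to 45.7 CPM in controls and 85.8 to 97.5 CPM in KO cells, Tubb3 and Map2 were tested. Tubb3, which encodes a tubulin best known from neurons, was at 8.81, 17.7 and 9.05 CPM in controls and at 49.2, 50.9 and 69.2 CPM in KO cells, without overlap. Without Tubb3 the neuron sums overlapped, at 34.4, 28.0 and 32.3 CPM in controls and 46.0, 34.9 and 28.3 CPM in KO cells. Tubb3 rose by 2.26 on the log2 scale (SE 0.28, edgeR adjusted p = 0.00386) and stayed called under all 16 alternatives. It was 1 call among 2 tested, against 2.83% called of all tested genes. Map2 was not called (log2 fold change 0.04, adjusted p = 0.92), and Snap25 and Rbfox3 had at most 4 counts in any library. In the joined lists of B cell, kidney, intestine, neuron, choroid plexus and peptide hormone genes, 104 genes lay below the filter. Of these, 73 had a count in KO library 1 and 20 to 36 in each other library.

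**Figure D4:**
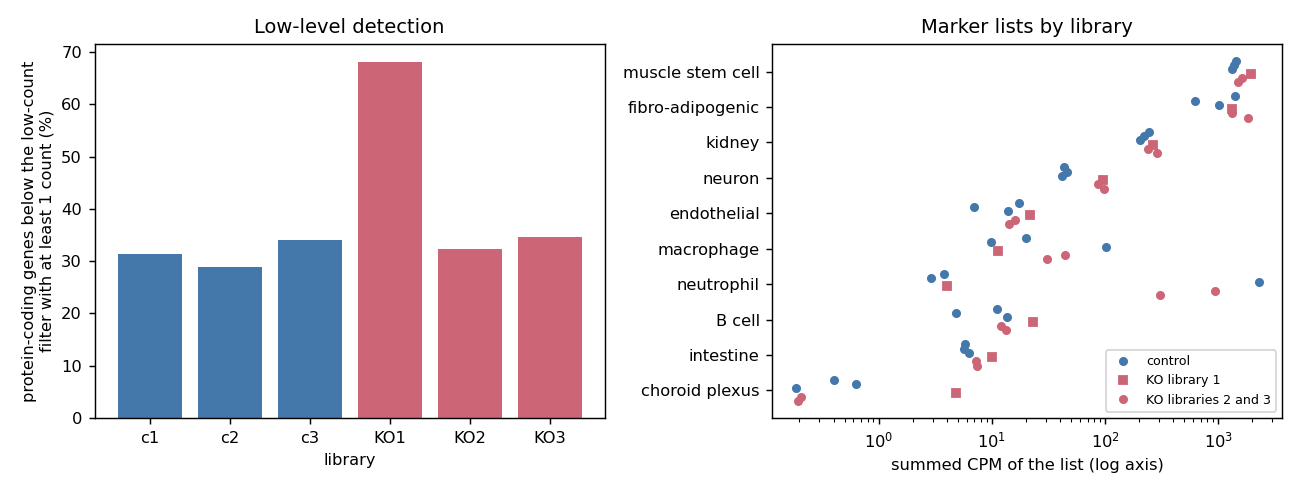
Left, percent of 11609 protein-coding genes below the low-count filter with at least 1 count in each library (bars from 0); KO library 1 is at 68.1% and the others at 28.9% to 34.5%. Right, summed CPM of each marker list (log axis) by library, with KO library 1 as a square; neutrophil markers separate libraries rather than groups, and choroid plexus markers are high only in KO library 1.

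The labelled cell type was present by its own markers. All 14 muscle stem cell markers were tested, and Pax7 was at 26.9 ± 5.70 and 26.9 ± 6.56 CPM. Myod1, the only marker called (2.83% of all tested genes were), rose by 1.04 on the log2 scale (SE 0.15, edgeR adjusted p = 7.791e-04). At an unadjusted p under 0.05, 3 were higher and 0 lower, against 10.1% and 7.64% of all tested genes. Their sum was 1334 to 1440 CPM in controls and 1508 to 1953 CPM in KO cells, without overlap. Myod1 made up 137.4 to 148.2 and 237.6 to 361.5 CPM of it. The nearest libraries were control library 1 (sum 1440 CPM, Myod1 141.0 CPM) and KO library 3 (sum 1508 CPM, Myod1 237.6 CPM). Between these libraries Myod1 differed by more than the sums did, so the lack of overlap rests on Myod1. All 8 tested markers of fibro-adipogenic progenitors, the connective tissue cells of muscle, had a positive log2 fold change (median 0.54), against 50.9% of all tested genes, and none was called (2 higher at an unadjusted p under 0.05, against 10.1%). Their sum was 619.6 to 1403 CPM in controls and 1313 to 1833 CPM in KO cells, and their part in the levels of the 4 genes was not tested.

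For each of the 4 genes every KO library lay above every control library. Leaving out libraries could therefore change the size of a difference but not its direction. Without KO library 1, the log2 fold changes were 7.03 for Cck, 3.99 for Slco1a5, 2.501 for Blnk and 1.73 for Podxl. Control libraries 1 and 2 and KO library 1, which lack neutrophil transcripts, gave 7.69, 3.33, 2.69 and 1.66. In that comparison KO library 1 is the only KO library, so its spread is assumed to equal that of the controls.

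The genes most like each member were taken by Pearson's r of log2 CPM over the 6 libraries, in which the difference between groups dominates. For Cck these were Gstt2 (r = 0.997), Pdpn (0.994) and B3gnt9 (0.994), and for Blnk they were Wnt10b (0.998), Tnfrsf22 (0.998) and B3gnt9 (0.998). For Slco1a5 they were Tob1 (0.997), Padi3 (0.996) and Sema3e (0.995). For Podxl they were Twsg1 (0.996), Trim24 (0.996) and Kidins220 (0.995). Of these 11 genes, B3gnt9 and Kidins220 were not called, with mean levels of 1.58 and 4.25 CPM for B3gnt9 and 38.6 and 49.9 CPM for Kidins220 in controls and KO cells. The likeness is not selective, since between 148 and 199 genes had r over 0.95 with each member. Between members, r was highest for Cck and Blnk (0.992) and lowest for Cck and Slco1a5 (0.954).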

How the data were processed

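For 6 libraries the authors deposited unnormalised counts of reads by Ensembl gene, as whole numbers. The tools named are STAR, Salmon and DESeq2 1.34.0, with GRCm38, per the submitters' processing notes. The counting tool, its strand setting and the annotation are not named there. Per the labels' protocols, there is both a stranded total RNA kit with ribosomal RNA removal (400 ng, paired reads of 75 bases) and an mRNA kit, so the kit is not settled. Of 55487 gene IDs, 55141 matched a symbol; coordinates, types and exon lengths came from GENCODE M21.

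Counts were fitted over the whole table with edgeR 4.0.16 (R 4.3.3; robust quasi-likelihood test, two-sided, TMM, default low-count filter, Benjamini-Hochberg, threshold 0.05), after tests on simulated data. Each SE is the log2 fold change divided by the root of F. CPM values are TMM-normalised, given as mean ± SD over 3 libraries. Counting intervals (95%, exact) and floors (3 counts) cover counting error only. Alternatives used DESeq2 1.42.0, limma 3.58.1 and others listed with the sensitivity results. The members and the 17 gene lists were chosen with earlier results of these data known. Named genes were Setdb1, the members, fixed relatives and markers, up to 4 called genes per list or the 2 highest, nearest neighbours, and the 3 genes most like each member; others named from the lists, such as Syk, Pcsk1, Pam, Msn and Wt1, were added for their role. P-values set the difference between groups against the spread of libraries within groups, estimated with information shared across genes.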

Additional observations from a re-analysis of the deposited data

How the results depend on the processing

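All 4 members were chosen as higher in every KO library, so their direction under the 16 alternatives was set by that choice. The alternatives bear on the size of the difference only. Podxl moved by less than its spread between libraries in each (log2 fold change 1.66 to 1.81). Cck was fitted at 6.76 by DESeq2, 5.29 by limma-voom and 7.69 without the libraries holding neutrophil transcripts, which shows how far a value resting on 0 control counts depends on the model. With the same libraries left out, Slco1a5 was at 3.33 and Blnk at 2.69. With 1 library left out, Cck ranged from 7.03 to 7.50, Slco1a5 from 3.56 to 4.43 and Blnk from 2.501 to 2.61.

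Over all genes, 318 were called (249 higher, 69 lower). DESeq2 called 184 (147 and 37), the fit without a low-count filter 511 (138 lower), and the 3 libraries without neutrophil transcripts 1282 (641 and 641), with 1 KO library left. Leaving out 1 library gave 152 to 345 calls, 133 to 255 higher and 15 to 90 lower; the totals were 152 without KO library 1, 157 when control library 2 was left out and 180 when KO library 2 was, and the lower calls were 19, 15 and 22 there, 38 with control library 1 left out, and 43 with KO library 3 left out. Replicate numbers are shared between groups. Deviations of same-numbered libraries from their group means had r = 0.14, -0.09 and -0.06 across genes. The highest r, 0.29, was between control library 3 and KO library 2, which both held neutrophil transcripts. With 3 libraries per group, these values cannot show whether the numbers pair libraries. With the number as a replicate block, 247 genes were called, 206 higher and 41 lower.

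For Podxl partners the count of calls went from 1 to 0 with library totals alone, without the filter and without the neutrophil-holding libraries, and ranged from 0 to 1 with 1 library left out. For kidney markers it went from 1 to 0 with library totals, no filter, a minimum of 1 CPM in 3 libraries, the replicate block, DESeq2 and without the neutrophil-holding libraries, and ranged from 0 to 1 with 1 library left out. Fibro-adipogenic markers had 2 calls without the filter, 1 with DESeq2, 1 without the neutrophil-holding libraries and 0 to 2 with 1 library left out. Without the neutrophil-holding libraries, with 1 KO library left, calls also rose for B cell receptor signalling genes and muscle stem cell markers. Calls over all genes rose in that fit too, so the rise is not particular to these lists. The cause of these shifts was not tested. The lists of peptide hormones, prohormone processing, cholecystokinin receptors, Slco genes, other transporters and neighbours had 0 calls under every alternative that left more than 1 library per group. In the main fit, 2 peptide hormone genes, 3 Slco genes and no cholecystokinin receptor gene had enough counts to test. For these 3 lists, 0 calls is therefore no sign of stability. At this depth, genes near 1 CPM rest on about 5 counts per library.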
